A study of Mus musculus with 4 samples.

Results

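Natural killer (NK) cells kill stressed or infected cells without prior priming and are the main innate source of interferon gamma. The genes described here are 40 genes of NK and cytotoxic lymphocytes, chosen by name, which are receptors of the NK surface, proteins of the cytotoxic granule, interferon gamma, transcription factors and cytokine receptors, among 35869 genes listed in each sample. RNA-seq was performed on CD45+ immune cells, enriched with microbeads from the stromal vascular fraction (SVF) of epididymal white adipose tissue (eWAT). Sequenced were 2 samples from male WT C57BL/6 mice on a normal fat diet (ND), with 10% of its calories as fat, and 2 from male WT C57BL/6 mice on a high-fat diet (HFD), with 60%. The mice were 8 weeks old when the diets began and ate them for 12 weeks. All 4 samples were thus from WT animals and differed by diet. The sources do not state how many mice made up a library, so p-values measure only the spread between these samples, which may be technical. Values are TPM, a share of the transcripts of a sample that is corrected for gene length and not an absolute amount.

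NK cells read the surface of other cells through inhibitory receptors, which bind MHC class I molecules, and activating receptors, which bind ligands induced by stress. In mice, most of these receptors are lectin-like proteins encoded side by side in the NK gene complex. When activation prevails, the cell releases granules in which perforin opens the target membrane and granzymes cleave proteins inside the target. The T-box factors T-bet and Eomes govern the development of NK cells, and interleukins 2, 12, 15 and 18 sustain or activate them. In visceral fat, NK cells and the related group 1 innate lymphoid cells (ILC1) are known as sources of interferon gamma. Many of these genes are also expressed by CD8 T cells, NKT cells and gamma-delta T cells, so a gene of the list does not by itself mark an NK cell.

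The sequences shown are the bases directly before the start site of 5 members, the lineage markers Ncr1 and Klrb1c, the granzymes Gzma and Gzmb, and Ifng, taken from RefSeq on GRCm38.p6 and written 5′ to 3′ on the strand of the gene. They are shown because these genes moved together with diet, and capitals mark the letters TGTGGT, the core of the motif of RUNX factors, or their complement ACCACA. The stretch of Ncr1 is chr7:4337519-4337714 on the plus strand, that of Klrb1c chr6:128788642-128788761 on the minus strand, that of Gzma chr13:113100982-113101101 on the minus strand, that of Gzmb chr14:56262335-56262454 on the minus strand and that of Ifng chr10:118440926-118441045 on the plus strand.
Ncr1: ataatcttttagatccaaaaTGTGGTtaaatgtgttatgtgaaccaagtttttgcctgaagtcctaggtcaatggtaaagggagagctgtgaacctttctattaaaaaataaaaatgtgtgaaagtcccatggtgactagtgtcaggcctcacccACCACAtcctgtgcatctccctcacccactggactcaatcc
Klrb1c: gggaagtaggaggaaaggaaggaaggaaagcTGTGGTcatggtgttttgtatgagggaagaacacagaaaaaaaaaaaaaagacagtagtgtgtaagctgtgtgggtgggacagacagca
Gzma: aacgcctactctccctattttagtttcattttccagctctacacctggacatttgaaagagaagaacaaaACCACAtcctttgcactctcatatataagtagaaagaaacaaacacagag
Gzmb: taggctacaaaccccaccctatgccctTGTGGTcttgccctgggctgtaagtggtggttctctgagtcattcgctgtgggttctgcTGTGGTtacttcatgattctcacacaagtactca
Ifng: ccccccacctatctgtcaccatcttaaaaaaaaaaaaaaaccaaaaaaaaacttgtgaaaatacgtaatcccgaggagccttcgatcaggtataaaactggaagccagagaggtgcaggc

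The promoters of Ncr1 and Gzmb each held the RUNX letters at 2 places, which began 176 and 41 bases before the start of Ncr1 and 93 and 34 bases before that of Gzmb. In Klrb1c and Gzma they began 89 and 50 bases before the start, and the promoter of Ifng held none. These offsets hold for the RefSeq starts. The outermost start in GENCODE vM21 lies 74 bases further downstream for Gzmb, 9 bases further downstream for Ncr1 and upstream of the stretch shown for Klrb1c, at a position of -574 relative to the RefSeq start. Over windows of 300 bases, from 250 before the start to 50 after it, on both strands, 17 of the 34 members with a promoter in the table held TGTGGT (50%), as compared to 18.9% of 27025 genes. The T-box letters GGTGTGA were in 5 of 34 (14.7%; 4.6% of all genes), which were Cd160, Gzmk, Gzmm, Klra1 and Nkg7. The STAT letters TTCNNNGAA, which read the same on both strands, were in 8 of 34 (23.5%; 9.6% of all genes). No match of one motif overlapped a match of another in these windows. A match of letters is a description of the sequence and was not tested for binding.

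HFD was accompanied by lower levels of most of the 40 genes. Of the 38 with at least 1 TPM in at least 2 samples, 31 were called lower in HFD as compared to ND and 0 were called higher by limma (adjusted p-value under 0.05 and at least 1.5-fold on the log2(TPM + 1) scale). Over all 16849 genes tested, 18.4% were called, 10.3% lower and 8.08% higher. In 35 of the 38, both HFD values lay below both ND values, which held for 32.8% of all genes tested, and in 2 both lay above, which held for 34.1%. The median log2 fold change was -1.72 over the 38 members and 0.06 over all genes tested. Of the 38, 4 (Klrb1f, Klre1, Txk and S1pr5) passed the limit on low values through the ND samples alone and so could only come out lower. The other members, Gzmm and Cd160, were under the limit and were not tested. At an unadjusted p-value under 0.05 (limma), 35 members were lower and 2, Slamf7 and Sh2d1b1, were higher. The share of all genes tested that passed this unadjusted limit was not counted, so these counts have no background beside them. Leaving out either HFD replicate gave 32 members called lower, but then the 2 close ND samples alone set the spread and the lone HFD sample is assumed to vary like them. Leaving out either ND replicate, where the HFD samples alone set the spread, left no call among the members or among all genes tested. The median log2 fold change of the members was then -1.74 without ND replicate 1 and -1.68 without ND replicate 2. Over all genes tested it was 0.03 and 0.08 in these settings.

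**Figure D1:**
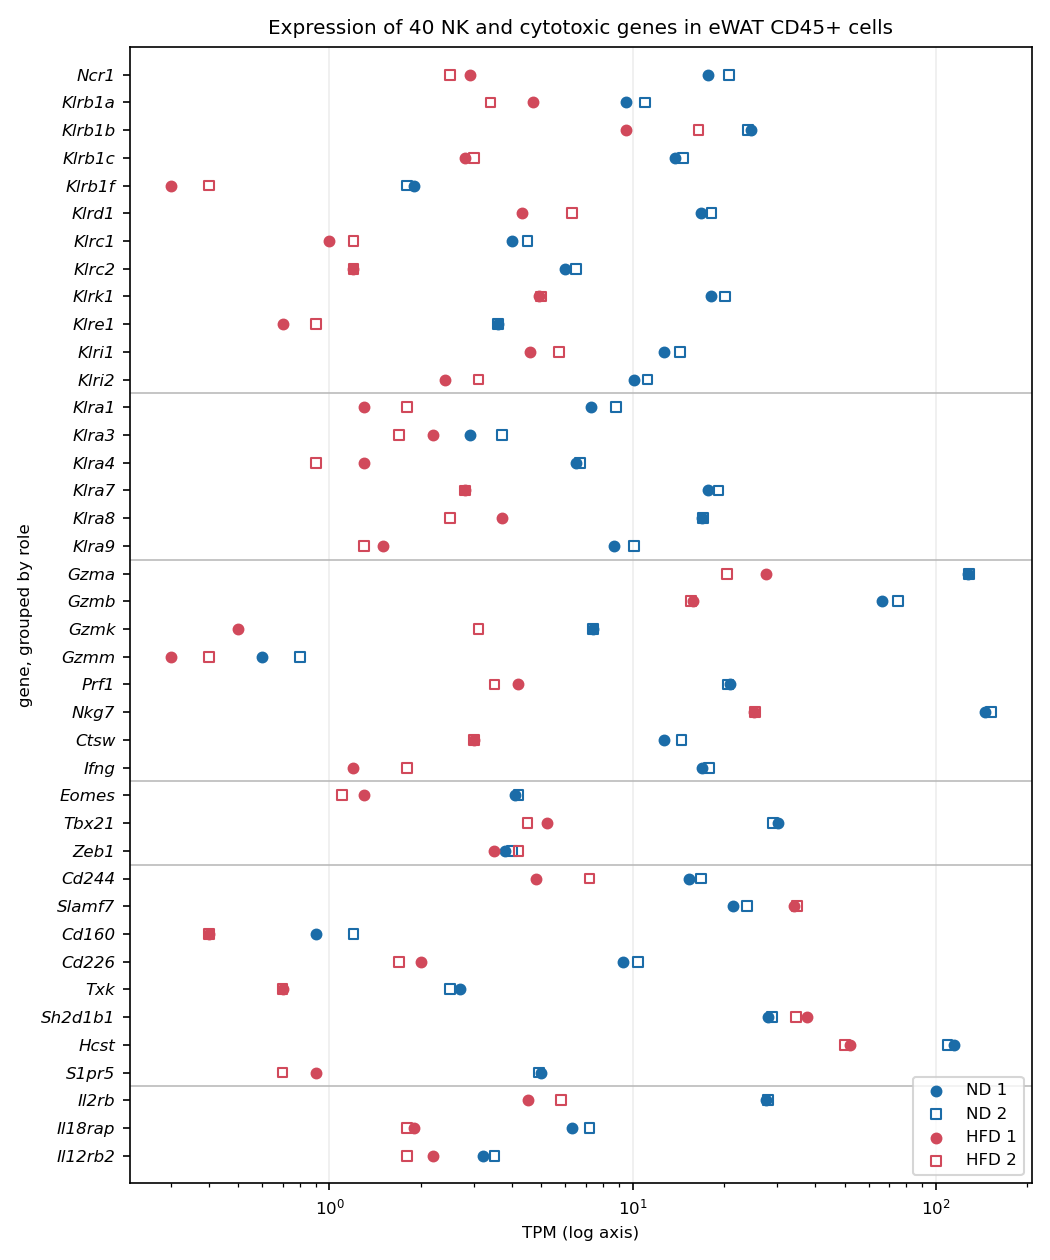
TPM of each of the 40 genes (log axis) in the 2 ND samples (blue) and the 2 HFD samples (red), with replicate 1 as filled circles and replicate 2 as open squares, and lines between the roles. The HFD samples lie to the left of the ND samples for most genes, to the right for Slamf7 and Sh2d1b1, and on either side of them for Zeb1.

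Among the 31 members called lower, the ratio of the mean TPM in ND to that in HFD ran from 2.19 for Hcst to 11.6 for Ifng. Its median among these 31 was 5.19, and it lay between 3 and 7 for 25 of them. The summed TPM of the 40 genes was 869.4 and 907.2 in ND and 280.9 and 282.9 in HFD, 3.15-fold lower in HFD. The most abundant members in ND, Nkg7, Gzma, Hcst and Gzmb, made up 52.2% and 51.3% of the ND sums. In these bulk samples, fewer cells of a type and less RNA per cell cannot be told apart.

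**Figure D2:**
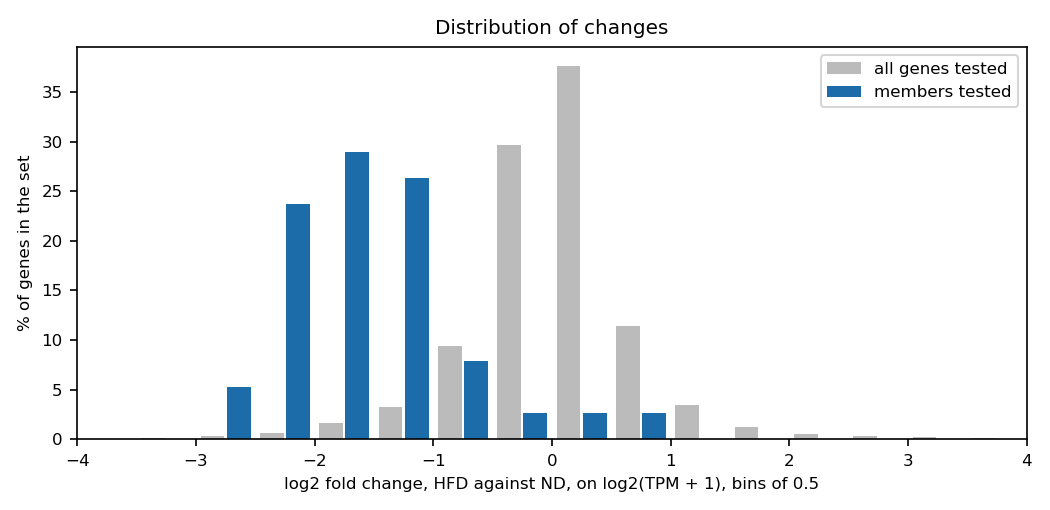
Percent of genes (vertical axis) in bins of 0.5 of the log2 fold change, HFD against ND (horizontal axis, drawn from -4 to 4), for the 16849 genes tested (grey) and the 38 members tested (blue). The median is -1.72 for the members and 0.06 for all genes.

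The surface markers by which NK cells are recognized were among the genes that fell. Ncr1 encodes NKp46, an activating receptor found on NK cells and other innate lymphoid cells (chr7:4337715-4345184, GRCm38). Its level was 17.7 and 20.8 TPM in ND versus 2.9 and 2.5 in HFD, a log2 fold change of -2.45 ± 0.13 (SE, adjusted p = 0.00582, limma). Klrb1c encodes the receptor that the NK1.1 antibody binds in C57BL/6 mice. Its level was 13.8 and 14.7 TPM in ND versus 2.8 and 3.0 in HFD (log2 fold change -1.97 ± 0.09 SE, adjusted p = 0.00514). For both genes the diets were far apart and the replicates close.

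The other members of the Klrb1 family differed in size of change. Klrb1a had 9.5 and 11 TPM in ND versus 4.7 and 3.4 in HFD, a log2 fold change of -1.16 ± 0.18 (SE, adjusted p = 0.0277), which missed the threshold without HFD replicate 2 (-0.98, adjusted p = 0.0536). Klrb1f had 1.9 and 1.8 TPM in ND versus 0.3 and 0.4 in HFD. Klrb1b, an inhibitory receptor for Clec2d, had 24.5 and 24 TPM in ND versus 9.5 and 16.5 in HFD. Klrb1b was thus below ND in both HFD samples but was not called (log2 fold change -0.90 ± 0.29 SE, adjusted p = 0.110), and its HFD replicates were further apart than those of Klrb1c.

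Receptors of the NKG2 group fell together. Klrk1 encodes NKG2D, which binds MHC-like ligands induced by stress, and had 18.2 and 20.2 TPM in ND versus 4.9 and 5.0 in HFD (log2 fold change -1.76 ± 0.09 SE, adjusted p = 0.00561). Klrd1 encodes CD94, the partner chain of the NKG2A and NKG2C receptors, and had 16.8 and 18.2 TPM in ND versus 4.3 and 6.3 in HFD. The inhibitory NKG2A gene, Klrc1, had 4.0 and 4.5 TPM in ND versus 1.0 and 1.2 in HFD, and the activating NKG2C gene, Klrc2, had 6.0 and 6.5 TPM in ND and 1.2 in each HFD sample. The inhibitory and the activating member of this pair were therefore both called lower, at log2 fold changes of -1.32 and -1.72. Klre1, which pairs with Klri1 or Klri2, had 3.6 TPM in each ND sample and 0.7 and 0.9 TPM in HFD. Klri1 had 12.7 and 14.3 TPM in ND against 4.6 and 5.7 TPM in HFD, and Klri2 had 10.1 and 11.2 TPM against 2.4 and 3.1 TPM. Of the 12 receptors of the NKp46, Klrb1, NKG2, Klre and Klri groups, 11 were called lower, and their summed TPM was 138.8 and 150.8 in ND and 39.3 and 49.2 in HFD.

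Ly49 receptors, encoded by the Klra genes, are the mouse receptors for MHC class I, and single NK cells express different sets of them. Of 6 members, 5 were called lower, and the summed TPM was 60.1 and 65.6 in ND and 12.8 and 11 in HFD, 5.28-fold lower. Klra7 (Ly49G, inhibitory) had 17.7 and 19.2 TPM in ND versus 2.8 in each HFD sample (log2 fold change -2.35 ± 0.08 SE, adjusted p = 0.00449). Klra8 (Ly49H, an activating receptor that recognizes a protein of mouse cytomegalovirus) had 17.0 and 17.1 TPM in ND versus 3.7 and 2.5 in HFD (log2 fold change -2.15 ± 0.18 SE, adjusted p = 0.0103). Klra4, which encodes the activating receptor Ly49D, had 6.5 and 6.7 TPM in ND versus 1.3 and 0.9 in HFD. Activating and inhibitory receptors were thus both among those called lower. Klra1 (Ly49A) had 7.3 and 8.8 TPM in ND versus 1.3 and 1.8 in HFD, and Klra9 (Ly49I) had 8.7 and 10.1 TPM in ND versus 1.5 and 1.3 in HFD. Klra3 (Ly49C) was the member of the family that was not called, with 2.9 and 3.7 TPM in ND versus 2.2 and 1.7 in HFD (log2 fold change -0.54 ± 0.17 SE, adjusted p = 0.101).

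Values of close relatives in this family can include each other's reads. Of all windows of 50 bases in its longest GENCODE vM21 transcript, Klra3 shared 21.5% with transcripts of other genes, Klra8 33.1% and Klra9 32.4%, whereas Klra1 shared 3.2% and Klra4 4.7%. The share was 40.3% for Klrc1, of which nearly all (38.1%) was with Klrc2, and 29.0% for Klrb1b. For Klrb1b, 27.1% was with Gm44511, whose exons overlap its own on the same strand. In all, 11 of the 40 members shared more than 10% of their windows. The levels of these single genes are uncertain, but the shares do not measure by how much, since the counting of reads with several matches is not stated. Ncr1, Klrb1f, Klrd1, Klrk1, Gzma, Gzmb, Prf1, Nkg7 and Tbx21 shared 0.0%.

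The 17 Klr members are genes of the NK gene complex. The interval described here was set by these members and not by the bounds of the complex. It runs 1.78 Mb from the start of Klrb1a to the end of Klra1 (chr6:128609227-130386874, GRCm38). Of these 17 genes 15 were called lower. Between them lie 25 other genes that were tested, of which 11 were called lower, 2 higher and 12 neither, with a median log2 fold change of -1.03. Of the 11, 4 (Klrc3, Klra5, Klra6 and Clec2g) passed the limit on low values through ND alone and so could only come out lower. The 18 of them that are not Klr genes had a median of -0.36, with 7 called lower and 2 higher. Not all genes of the interval were lower. Clec12a and Clec7a, lectin-like receptors of myeloid cells, had 134.7 and 142.8 TPM and 168.0 and 188.0 TPM in ND against 284.4 and 284.6 TPM and 276.0 and 263.3 TPM in HFD, and were called higher. Gabarapl1, a gene of autophagy that lies beside Klre1, was above ND in both HFD samples but under the 1.5-fold limit (log2 fold change 0.36, adjusted p = 0.0239).

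**Figure D3:**
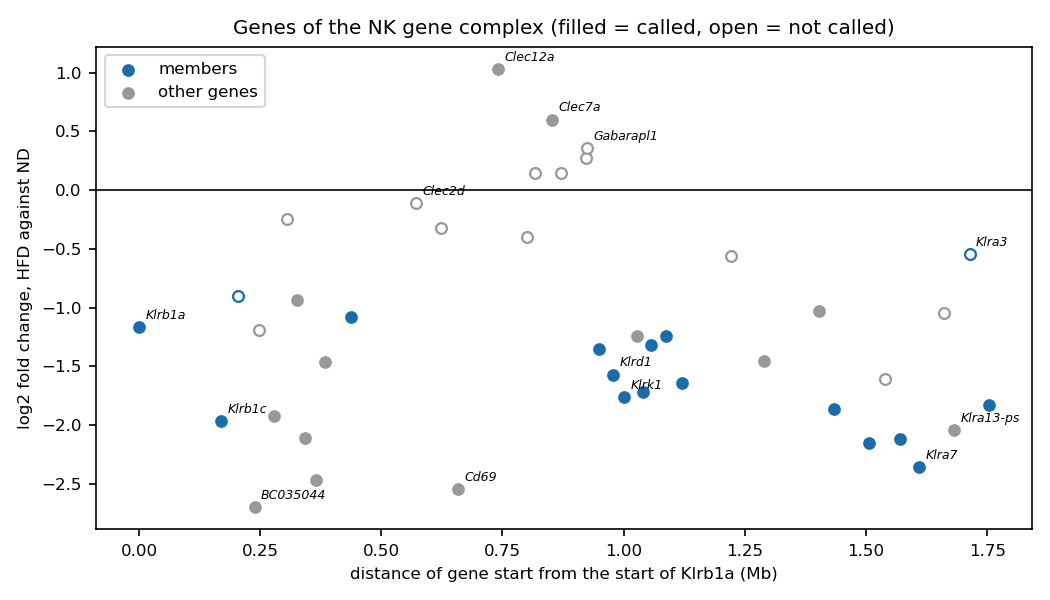
log2 fold change, HFD against ND (vertical axis), of the 42 tested genes of the NK gene complex from Klrb1a to Klra1 by the distance of their start from that of Klrb1a in Mb (horizontal axis), with members in blue, other genes in grey and genes not called as open circles. The 17 members lie between -2.35 and -0.54, whereas Clec12a and Clec7a lie above 0.

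Genes of the cytotoxic granule showed the same direction. Gzma and Gzmb encode granzymes A and B, proteases that enter the target cell. Gzma had 127.9 and 128.8 TPM in ND versus 27.5 and 20.5 in HFD (log2 fold change -2.39 ± 0.16 SE, adjusted p = 0.00800). Gzmb had 66.7 and 75.1 TPM in ND versus 15.8 and 15.6 in HFD (log2 fold change -2.10 ± 0.08 SE, adjusted p = 0.00476). Prf1 encodes perforin, the protein that forms pores in the target, and had 21.0 and 20.6 TPM in ND versus 4.2 and 3.5 in HFD (log2 fold change -2.17 ± 0.11 SE, adjusted p = 0.00555). Perforin and both granzymes were therefore lower by 4.52-fold to 5.40-fold in mean TPM. Nkg7, a membrane protein of the granule needed for its release, was the most abundant member in ND, with 145.1 and 152.1 TPM in ND versus 25.1 and 25.3 in HFD (log2 fold change -2.51 ± 0.05 SE, adjusted p = 0.00378). Ctsw, which encodes cathepsin W, a protease of cytotoxic cells, had 12.7 and 14.5 TPM in ND versus 3.0 in each HFD sample.

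Gzmk and Gzmm were the granzymes without a call. Gzmk had 7.4 TPM in each ND sample but 0.5 and 3.1 TPM in HFD, which correspond to approximately 11.2 and 60.6 reads. On the log2(TPM + 1) scale its HFD replicates differed more than those of the other tested granule genes. The log2 fold change of -1.76 ± 0.56 (SE) did not pass the test (limma, adjusted p = 0.109). Gzmm was near the lower end of the values, at 0.6 and 0.8 TPM in ND versus 0.3 and 0.4 in HFD, approximately 7.1 to 19.4 reads.

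Ifng, the gene of interferon gamma, had the largest change of the members (chr10:118441046-118445894, GRCm38). Its level was 16.9 and 17.9 TPM in ND versus 1.2 and 1.8 in HFD, an 11.6-fold lower mean and a log2 fold change of -2.89 ± 0.16 (SE, adjusted p = 0.00613). These values rest on approximately 312 and 383 reads in ND and 25.1 and 32.8 in HFD. The group of granule proteins and Ifng fell from a summed TPM of 398.3 and 417.2 in ND to 77.6 and 73.2 in HFD, a ratio of 5.41. Of its 7 tested genes 6 were called lower.

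Both T-box factors fell, whereas the values of Zeb1 overlapped. Tbx21 encodes T-bet, which drives interferon gamma expression and NK maturation, and had 30.1 and 29.0 TPM in ND versus 5.2 and 4.5 in HFD (log2 fold change -2.39 ± 0.09 SE, adjusted p = 0.00477). Eomes, which separates conventional NK cells from ILC1, had 4.1 and 4.2 TPM in ND versus 1.3 and 1.1 in HFD (log2 fold change -1.23 ± 0.11 SE, adjusted p = 0.0108). On the TPM scale the mean of Tbx21 was 6.09-fold lower and that of Eomes 3.46-fold lower. Zeb1, a zinc finger repressor that is also expressed in fibroblasts, had 3.8 and 4.0 TPM in ND versus 3.5 and 4.2 in HFD, so that the diets overlapped (log2 fold change -0.02 ± 0.12 SE, adjusted p = 0.921).

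Co-receptors and adaptors were divided. Cd226 encodes DNAM-1, an activating receptor for Pvr and Nectin2, and had 9.3 and 10.4 TPM in ND versus 2.0 and 1.7 in HFD (log2 fold change -1.93 ± 0.12 SE, adjusted p = 0.00678). Cd244, the receptor for Cd48, had 15.3 and 16.8 TPM in ND versus 4.8 and 7.2 in HFD (log2 fold change -1.30 ± 0.21 SE, adjusted p = 0.0302). S1pr5, a receptor for sphingosine-1-phosphate that guides NK cells out of bone marrow and lymph nodes, had 5.0 and 4.9 TPM in ND versus 0.9 and 0.7 in HFD. These receptors were all lower in HFD, as was Txk, a Tec family kinase, with 2.7 and 2.5 TPM in ND versus 0.7 in each HFD sample. Cd160, a receptor for Tnfrsf14, had 0.9 and 1.2 TPM in ND versus 0.4 in each HFD sample and was not tested. Hcst encodes DAP10, the signalling adaptor of NKG2D in many leukocytes, and had 114.5 and 109.3 TPM in ND versus 52.2 and 50.2 in HFD. Its mean was 2.19-fold lower, the smallest ratio among the called members (log2 fold change -1.11 ± 0.05 SE, adjusted p = 0.00536).

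Slamf7 and Sh2d1b1 were the members with higher values in HFD. Slamf7, a self-binding receptor of NK cells that macrophages and B cells also express, had 21.5 and 23.9 TPM in ND versus 34.1 and 34.8 in HFD. Its log2 fold change of 0.58 ± 0.08 (SE, adjusted p = 0.0210) was just under the 1.5-fold limit. Sh2d1b1 encodes EAT-2, the adaptor of Slamf7, and had 27.9 and 28.8 TPM in ND versus 37.5 and 34.6 in HFD (log2 fold change 0.34 ± 0.07 SE, adjusted p = 0.0459). For both genes the diets did not overlap, and neither was called. Hcst, Slamf7, Sh2d1b1 and Zeb1 made up 19.3% and 18.3% of the summed TPM of the members in ND but 45.3% and 43.8% in HFD. Without these 4, a split made after the values were seen, the sum of the other 36 was 701.7 and 741.2 in ND and 153.6 and 159.1 in HFD, 4.61-fold lower.

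**Figure D4:**
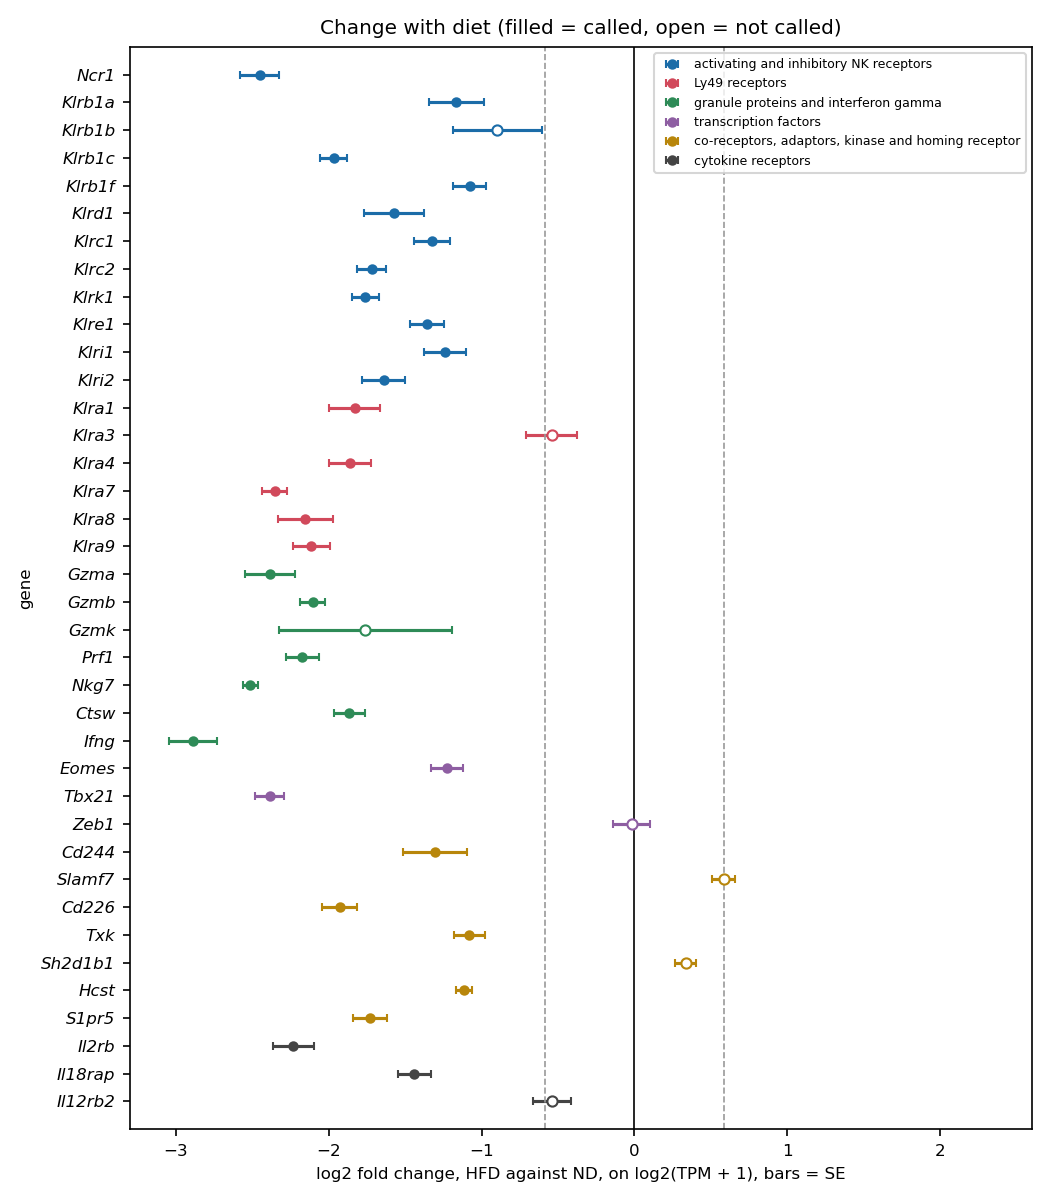
log2 fold change of the 38 tested members, HFD against ND, on the log2(TPM + 1) scale (horizontal axis), with the SE of limma as bars, colours by role, filled symbols for called genes and dashed lines at the 1.5-fold limit. Ifng lies furthest to the left at -2.89, and Slamf7 (0.58) and Sh2d1b1 (0.34) lie to the right of 0.

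Cytokine receptor chains fell as well. Il2rb is the chain shared by the receptors for interleukin 2 and interleukin 15, on which NK survival depends, and had 27.6 and 27.9 TPM in ND versus 4.5 and 5.8 in HFD (log2 fold change -2.23 ± 0.13 SE, adjusted p = 0.00678). Il18rap, the accessory chain of the interleukin 18 receptor, had 6.3 and 7.2 TPM in ND versus 1.9 and 1.8 in HFD (log2 fold change -1.44 ± 0.11 SE, adjusted p = 0.00909). Il12rb2, the signalling chain of the interleukin 12 receptor, had 3.2 and 3.5 TPM in ND versus 2.2 and 1.8 in HFD and was not called (log2 fold change -0.54 ± 0.12 SE, adjusted p = 0.0578). Of the exon bases of Il12rb2, 40% overlap those of Serbp1 on the opposite strand, whose level was 27.2 and 29.2 TPM in ND versus 35.5 and 34.2 in HFD. The libraries were stranded, but whether reads were counted by strand is not stated, and the part of Serbp1 in the values of Il12rb2 was not tested.

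Further genes of the pathway were followed in 6 lists of 89 genes, of which 78 were tested, 40 were called lower and 5 higher. Of the 40, 4 (Il12rb1, Il18r1, Sh2d1a and Tox) passed the limit on low values through ND alone and so could only come out lower. Of 15 other surface and chemokine genes of NK cells, 14 were called lower. The largest changes were those of Klrg1, an inhibitory receptor of mature NK and effector T cells, with 52.9 and 55.5 TPM in ND versus 5.7 and 5.9 in HFD (log2 fold change -3.02), of Cxcr6, a chemokine receptor (-2.84), and of Cd7 (-2.73). Itga1, the collagen-binding integrin by which ILC1 are recognized, was not called and overlapped between the diets, with 21.5 and 28.2 TPM in ND versus 25.5 and 20.4 in HFD. Itga2, by which conventional NK cells are recognized, had 4.9 and 6.1 TPM in ND versus 1.8 and 1.1 in HFD and was called lower (log2 fold change -1.42, adjusted p = 0.0261). Both integrins were picked after their values were seen. These bulk samples do not show which cells carried either transcript, and whether ILC1 and conventional NK cells differed was not tested.

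The ligands of the receptors moved in both directions. Of 14 tested, 5 were called lower and 3 higher. Raet1d and Ulbp1, which encode ligands of NKG2D, were called higher, with 1.0 and 0.8 TPM in ND versus 4.1 and 5.7 in HFD for Raet1d and 8.3 and 10.9 TPM in ND versus 21.7 and 19.1 in HFD for Ulbp1. Pvr, a ligand of DNAM-1, was also called higher, at 67.1 and 72.7 TPM in ND versus 115.5 and 156.5 in HFD (log2 fold change 0.94). Other NKG2D ligands were not called higher. H60b had 2.3 and 1.7 TPM in ND versus 1.5 and 0.9 in HFD and was not called, and Raet1e had 0.9 and 1.1 TPM in ND versus 0.6 in each HFD sample and was not tested. The largest decreases were those of H2-Q6 (log2 fold change -2.01) and H2-Q7 (-1.98), class I genes that are near-identical copies and so may share reads, and of Clec2i (-1.92). Cd48, the ligand of Cd244, had 152.5 and 164.5 TPM in ND versus 127.3 and 128.8 in HFD and was under the fold limit. Clec2d, the ligand of Klrb1b, overlapped between the diets.

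Among cytokines that act on NK cells and their other receptor chains, 5 of 15 were called lower and 1 higher. Il18r1 (log2 fold change -1.43) and Il21r (-1.41) had the largest decreases, and Ifngr2, a chain of the interferon gamma receptor, was called higher at 92.9 and 93.3 TPM in ND versus 190.4 and 202.8 in HFD (1.07). Il15, the main survival cytokine of NK cells, was low and not called, with 2.9 and 3.1 TPM in ND versus 2.5 and 2.3 in HFD. Of 15 adaptors and signalling genes, 6 were called lower, led by Lck (-2.12), Zap70 (-1.86) and Lat (-1.60), which act in T and NK cells. Tyrobp and Fcer1g, adaptors of NK receptors that myeloid cells also use, stayed under the fold limit at log2 fold changes of 0.24 and -0.28. The other genes called lower were Cd247, Sh2d1a and Plcg2.

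Of 10 tested genes for granule formation, release and death ligands, 5 were called lower and 0 higher, with the largest decreases for Fasl (log2 fold change -1.83), Rab27a, which docks granules (-1.21), and Ctsc, which activates granzymes (-1.20). At an unadjusted p-value under 0.05 (limma), 1 gene of this list, Lamp1, was higher, with an adjusted p-value of 0.00924 and a log2 fold change of 0.42, under the fold limit. Of 9 other transcription factors of NK cells and ILC1, 5 were called lower and 1 higher. Ikzf3 (-2.11) and Hopx (-1.60) had the largest decreases, and Prdm1, which encodes Blimp-1, was called higher at 3.6 and 3.9 TPM in ND versus 11.5 and 10.9 in HFD (log2 fold change 1.36). Runx3, a RUNX factor of cytotoxic cells, had 27.7 and 26.7 TPM in ND versus 9.9 and 14.8 in HFD (log2 fold change -1.10, adjusted p = 0.0427).

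Lists of other lymphocytes and of some other cells were lower too. The summed TPM of 11 T cell genes was 185.9 and 201.2 in ND and 30.4 and 46.7 in HFD, 5.02-fold lower, with 9 of 9 tested genes called lower, of which Trat1 passed the limit on low values through ND alone. That of 6 B cell genes was 134.9 and 132.9 in ND and 26.6 and 30.8 in HFD, 4.67-fold lower, with 6 of 6 called lower, of which Pax5 passed through ND alone. For CD8 T cells the ratio was 4.09 and for ILC2 it was 2.82, with 6 of 8 called lower, Gata3 through ND alone. Most of the ILC2 sum was Areg, with a mean of 202.4 of 258.6 TPM in ND and 76.8 of 91.85 in HFD. The mean of Areg was 2.64-fold lower, and those of the other genes of that list ran from 1.35-fold (Rora) to 8.16-fold lower (Il5). Mast cell and basophil genes were 3.65-fold lower, with 6 of 6 called lower, 1 of them through ND alone. Monocyte genes were 2.21-fold lower, with 2 of 5 called lower and Vcan above ND in both HFD samples. Plasmacytoid dendritic cell genes were 1.66-fold lower, with most of the sum from Bst2. Of these, 2 of 3 were called lower, Siglech through ND alone, so that it could only come out lower. Macrophage genes were at 18160.5 and 17648.0 in ND and 14839.4 and 15636.4 in HFD, a ratio of 1.18, with 2 of 9 called lower and 2 higher. Ptprc, which encodes CD45, had 54.5 and 59.4 TPM in ND versus 55.3 and 53.7 in HFD and was not called, so that the summed members stood at 16.0 and 15.3 times the level of Ptprc in ND and at 5.08 and 5.27 times in HFD.

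Whether the members stood higher relative to T cell genes in HFD depended on which members were summed. The summed TPM of the 40 members was 4.68 and 4.51 times that of the T cell list in ND and 9.24 and 6.06 times in HFD. Relative to B cell genes the 40 members stood at 6.44 and 6.83 in ND and at 10.6 and 9.19 in HFD, again without overlap. Relative to ILC2 genes they stood at 3.41 and 3.46 in ND and at 3.20 and 2.95 in HFD. Hcst, Slamf7, Sh2d1b1 and Zeb1 were set aside after their values were seen and by no fixed rule, and members that fell less than Hcst, such as Klrb1b, Klra3 and Il12rb2, stayed among the other 36. Lower ratios in HFD for the 36 follow in part from that choice. For these 36 the ratio to T cell genes was 3.77 and 3.68 in ND and 5.05 and 3.41 in HFD, that to B cell genes 5.20 and 5.58 in ND and 5.77 and 5.17 in HFD, and that to ILC2 genes 2.75 and 2.83 in ND and 1.75 and 1.66 in HFD. The diets overlapped in the first and second of these ratios. The ratios to ILC2 genes depend mainly on Areg, which made up most of the ILC2 sum. These ratios are a description and were not tested.

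**Figure D5:**
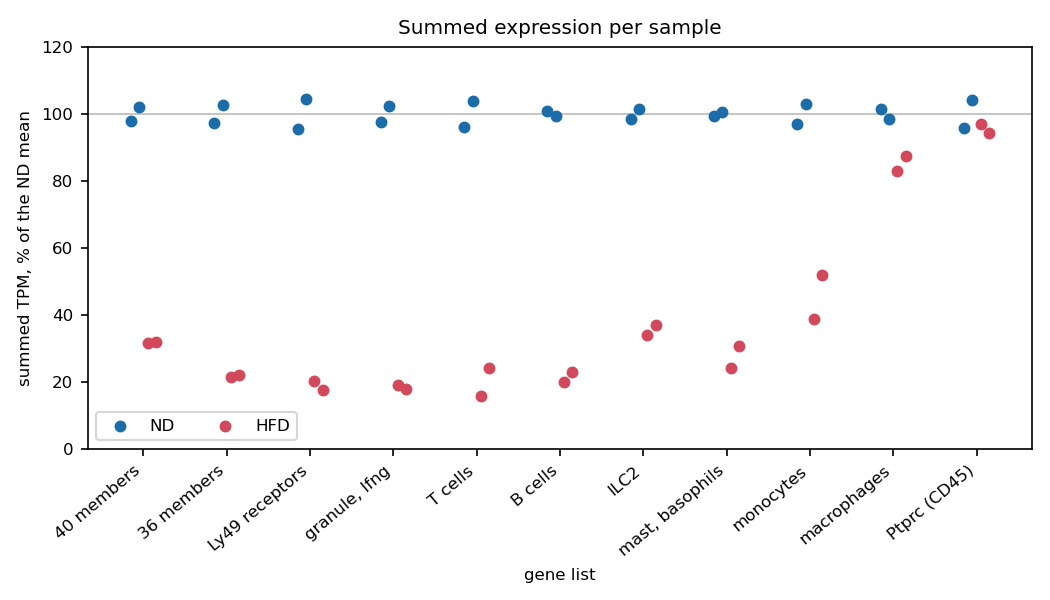
Summed TPM of gene lists in each sample as percent of the ND mean (vertical axis) for the members, 2 of their roles, marker lists of other cells and Ptprc (horizontal axis), with ND in blue and HFD in red. In HFD the 40 members are 3.15-fold lower, the 36 members, T cells and B cells 4.61-fold to 5.02-fold lower, and macrophages and Ptprc 1.18-fold and 1.05-fold lower.

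In the series as a whole, the depth estimated from short genes was approximately 37500000 to 46800000 counted reads per sample, and the called members rested on at least approximately 54.8 reads in ND and 9.8 in HFD. Genes of other cells moved with diet or library. The summed TPM of 6 fibroblast genes was 522.2 and 561.1 in ND and 2836.6 and 5686.2 in HFD, and that of 6 spermatid genes was 1757.0 and 1773.5 in ND and 6577.3 and 2023.2 in HFD, the first of these values in HFD replicate 1. Their part in the results was not tested. Neither HFD sample was the lower one across the members. Compared with HFD replicate 2, HFD replicate 1 had higher TPM for 17 of the 40, lower for 18 and equal for 5. Compared with ND replicate 2, ND replicate 1 had lower TPM for 31 of the 40, higher for 7 and equal for 2.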

How the data were processed

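RNA-seq values of CD45+ eWAT cells from WT mice were used (2 ND, 2 HFD). Per the labels and methods, the authors prepared stranded mRNA libraries, trimmed reads with Trim Galore 0.4.2 and cutadapt 1.9.1, aligned them to mm10 (GRCm38) with STAR 2.6.1e, removed duplicates, counted reads with featureCounts 1.6.2 and deposited TPM, printed to 1 decimal. Annotation, strand use and mice per library are not given in the sources used here. TPM are not counts, so log2(TPM + 1) was compared with limma 3.58.1 (lmFit, eBayes with a variance trend) in R 4.3.3, two-sided, over the 16849 genes with at least 1 TPM in at least 2 of 4 samples, with Benjamini-Hochberg adjustment over all of them. Genes were called at an adjusted p-value under 0.05 where the change on that scale, which understates that of low genes, was at least 1.5-fold. The steps were tested on simulated data.

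The depth was estimated from microRNA genes, whose TPM multiplied by RefSeq length fell on whole multiples of 0.0606 to 0.0711 within 0.05 TPM (162 to 211 genes per sample). Approximate reads use GENCODE vM21 exon lengths. The ND replicates differed by 1.86 times and the HFD replicates by 3.32 times the counting error, so each was kept as a sample. Coordinates and promoters are from RefSeq (GRCm38.p6): all 40 members matched in the gene table and 34 in the promoter table. Python 3.11.15 and matplotlib 3.10.9 drew the figures.

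Members and lists were chosen with earlier results of these data known. Named were all members, the 3 called genes with the largest change of each pathway list, and the defining gene or sum of marker lists. Areg, Bst2, Cd48, Cd247, Clec2d, Fcer1g, Gabarapl1, Clec7a, Clec12a, H60b, Il5, Il15, Itga1, Itga2, Lamp1, Plcg2, Pvr, Raet1d, Raet1e, Rora, Runx3, Serbp1, Sh2d1a, Tyrobp, Ulbp1, Vcan and the list genes that passed the filter through ND alone were chosen after their values were seen. Alternatives were another pseudocount, filter, variance model, scaling, fold limit or block, and each sample left out.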

Additional observations from a re-analysis of the deposited data

How the results depend on the processing

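The number of members called lower in HFD was 31 and stayed between 21 and 31 under a pseudocount of 0.1 or 5, no filter, a mean TPM of at least 5 (24 members tested), eBayes without a variance trend, median-ratio scaling, quantile normalization and other fold limits. With each sample left out in turn it ran from 0 to 32. It was 0 without either ND replicate and 32 without either HFD replicate. With a replicate block it was 16, all among the 31, and calls over all genes fell from 3097 to 812. The labels do not say whether equal replicate numbers were handled together. The deviations of equal numbers correlated at -0.015, which does not settle whether the samples were paired. The number called higher was 0, but 1 with a pseudocount of 0.1 (Slamf7) and 2 with no limit on the fold change (Slamf7 and Sh2d1b1), and 0 with each sample left out. A pseudocount of 5 lost 4 calls (Klrb1f, Klre1, Eomes and Txk), and no filter lost 4 (Klrb1a, Klrd1, Klri1 and Cd244). The log2 fold change of Zeb1 (-0.018) ran from -0.12 to 0.086 with each sample left out, above 0 without ND replicate 2 (0.011) or HFD replicate 1. The log2 ratio of summed TPM in HFD over ND was -1.66, and -1.69 to -1.62 with each sample left out, -1.74 after quantile normalization and -2.21 without Hcst, Slamf7, Sh2d1b1 and Zeb1, an alternative added after seeing the data. For the ratio to the T cell list it was 0.74, and 0.40 to 1.01 with each sample left out, but 0.18 without these 4 genes. The cause of these shifts was not tested. Gzmm and Cd160 were left out by the filter on TPM, and depth limits the precision of members with few reads in HFD, such as Klrb1f (approximately 9.8 and 11.4).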

Other observations

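Other genes of the Klr families are not among the 40, and most but not all of those listed were lower in HFD. Klrb1 had 0.7 TPM in each ND sample and 3.0 and 0.2 TPM in HFD, and it and Klrb1-ps1 overlapped between the diets and were not tested. Klra13-ps, annotated as a transcribed pseudogene between Klra10 and Klra3, had a higher TPM in ND than any of the 6 Ly49 members, and 14.7% of the windows of Klra7 also occur in it. It had 47.0 and 48.7 TPM in ND versus 12.1 and 9.7 in HFD (log2 fold change -2.04, adjusted p = 0.00705, limma). Klrc3 had 2.9 and 3.4 TPM in ND versus 0.7 and 0.8 in HFD, and Klra2 had 5.7 and 5.8 TPM in ND versus 2.2 and 2.9 in HFD. Klra5, Klra6 and Klrg2 were also called lower, but these and Klrc3 passed the limit on low values through ND alone, which leaves lower as the one direction open to them. Klra10, Klra14-ps and Klra17 had both HFD values below both ND values without a call.

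In the NK gene complex, BC035044 had 28.2 and 30.6 TPM in ND versus 4.1 and 3.3 in HFD (log2 fold change -2.70, adjusted p = 0.00530). Cd69, a lectin-like marker of lymphocyte activation and tissue residence, had 45.2 and 46.8 TPM in ND versus 6.7 and 7.4 in HFD (log2 fold change -2.55, adjusted p = 0.00415). These genes were chosen after their values were seen.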
